A study of Mus musculus with 73 samples.

Results

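Solute carriers are membrane proteins that move amino acids, sugars, ions, metals, vitamins, nucleosides and metabolites across cell membranes and the inner mitochondrial membrane. The genes described here are all array features with 1 gene symbol that begins with Slc and a family number, with a pair of genes left out by the rule, which gave 148 of 9596 features and 140 of 6777 named genes, from 45 families. Of these, 8 genes had 2 features and were averaged, and 110 genes were also measured on the direct mammary arrays described next. The rule works on symbols, so it also takes Slc9a3r1, a scaffold protein that binds the sodium/proton exchanger Slc9a3, and Slc4a1ap, an adaptor protein, neither of which is a transporter.

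The study compared tumors driven by the SV40 T/t-antigens, which inactivate p53 and the retinoblastoma proteins, with normal tissue at 4 sites, and then mammary tumors of 8 models with normal mammary gland. The first set has 35 two-colour arrays on which each sample was set against one universal reference RNA. In C57BL/6 mice there were 5 TRAMP prostate tumors against 4 wild-type prostates, and 6 TRAMP seminal vesicle tumors against 4 wild-type seminal vesicles; TRAMP drives the antigens from the probasin (PB) promoter, which is active in prostate epithelium. In FVB mice there were 4 C3(1)/SV40 T/t-antigen mammary tumors against 4 wild-type mammary glands, and 4 CC10/SV40 T/t-antigen lung tumors against 4 wild-type lungs; the CC10 promoter is active in club cells of the airway. The second set has 38 arrays on which a mammary tumor was hybridised directly with wild-type mammary gland: p53-/- transplants (5 arrays, Balb/c), p53fp/fp with WAP-cre (4, C57BL6/129sv), Brca1 Co/Co with MMTV-cre and p53 (5, C57BL6/129sv, the p53 allele being given no further), and in FVB mice MMTV-PyMT (5), MMTV-ras (5), MMTV-myc (4), MMTV-her2/neu (5) and C3(1)/SV40 T/t-antigen (5). Tumor RNA was always in the same dye on the direct arrays, so a dye effect cannot be told apart from a tumor effect there. Ages are not in the labels, strain is tied to site on the reference arrays, and no label says that samples of a group came from separate animals, so p-values measure the spread between these samples, which may be technical.

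In the gland and lung epithelia studied here, solute carriers feed secretion and growth. The heteromer of Slc7a5 and Slc3a2 takes up large neutral amino acids, Slc1a5 takes up glutamine, Slc2a1 takes up glucose, and the adenine nucleotide carriers Slc25a4 and Slc25a5 exchange ADP and ATP across the inner mitochondrial membrane. Slc25a4 is the form of heart and skeletal muscle, while Slc25a5 is the form of most dividing cells.

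All levels below are log2 ratios of sample over reference RNA, and all changes are tumor minus normal on the log2 scale with the standard error (SE) of the fit. A gene was called at a Benjamini-Hochberg adjusted p under 0.05 over all genes of the comparison (limma). A ratio to reference RNA compares 1 gene between samples and does not rank the levels of different genes. The samples were bulk tissue, so fewer cells of a type and less RNA per cell cannot be told apart.

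The tissue labels were checked on marker lists. Set against the mean of the other 3 normal tissues, all 8 measured adipocyte markers were higher in normal mammary gland and all 6 measured airway and alveolar markers were higher in normal lung. Of 3 measured secretory markers, 1 was higher in normal prostate and 2 in normal seminal vesicle. Other cell types moved with the tumor groups: the mean log2 ratio of 11 skeletal muscle markers was -0.05 ± 0.11 in prostate tumors (SD, n = 5) and 4.18 ± 0.45 in normal prostates (n = 4), that of 8 adipocyte markers was 1.31 ± 0.78 in mammary tumors and 3.73 ± 0.17 in normal mammary glands (n = 4 each), and that of 6 endothelial markers was 0.72 ± 0.18 in lung tumors and 2.08 ± 0.34 in normal lungs (n = 4 each). In prostate tumors the mean of 7 epithelial markers was -0.89 ± 0.18, against 1.56 ± 0.13 in normal prostates. That of 7 smooth muscle markers was -0.49 ± 0.11 in prostate tumors and 1.54 ± 0.16 in normal prostates, and that of 3 secretory markers was 0.05 ± 0.32 in prostate tumors and 2.83 ± 0.20 in normal prostates. Their part in the prostate falls given below, among them those of Slc26a2, Slc26a3, Slc4a4, Slc6a14 and Slc35f5, was not tested. Within groups, pairs of reference arrays correlated at r between 0.75 and 0.96 across genes, and pairs of direct arrays at r between 0.31 and 0.88.

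In all, 3 members were lower in tumor than in normal mammary gland in all 8 direct models: Slc25a4, the ADP/ATP carrier of muscle, Slc25a42, a mitochondrial carrier of coenzyme A, and Slc38a7, a lysosomal transporter of glutamine. Over all genes measured on those arrays, 1.72% were lower in all 8 models. The 250 bases before the start of each gene are shown because these members were called lower in each model; they come from RefSeq on GRCm38.p6, all lie on chromosome 8 on the minus strand, and CCAAT or its reverse complement is in capitals.

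Slc25a4, chr8:46211063-46211312: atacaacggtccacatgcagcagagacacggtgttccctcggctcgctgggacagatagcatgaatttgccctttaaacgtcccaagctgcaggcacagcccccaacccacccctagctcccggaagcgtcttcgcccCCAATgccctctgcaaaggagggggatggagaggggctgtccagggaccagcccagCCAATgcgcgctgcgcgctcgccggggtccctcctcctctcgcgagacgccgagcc

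Slc25a42, chr8:70212282-70212531: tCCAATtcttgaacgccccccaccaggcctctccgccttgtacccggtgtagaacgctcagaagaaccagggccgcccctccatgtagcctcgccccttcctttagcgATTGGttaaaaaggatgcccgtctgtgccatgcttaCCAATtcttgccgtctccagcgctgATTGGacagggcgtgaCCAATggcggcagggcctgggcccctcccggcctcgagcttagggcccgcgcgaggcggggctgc

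Slc38a7, chr8:95853492-95853741: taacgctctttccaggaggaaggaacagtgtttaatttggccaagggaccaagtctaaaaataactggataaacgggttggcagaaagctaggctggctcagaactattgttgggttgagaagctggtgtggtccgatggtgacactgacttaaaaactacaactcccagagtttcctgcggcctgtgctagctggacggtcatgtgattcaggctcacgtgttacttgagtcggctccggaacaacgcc

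The Slc25a4 window holds 2 CCAAT boxes, the Slc25a42 window 5 and the Slc38a7 window 0, counting both strands. CCAAT, the box bound by NF-Y, was chosen for display after the sequences had been read; it occurs in 34.5% of 27025 listed promoters of this length and in 33 of 118 members' promoters (28%). AAGGTCA, the half-site bound by estrogen-related receptors, occurs in none of the 3 windows, in 4.05% of all promoters and in 6 of 118 members' promoters (5.08%). A match describes letters in a window and is not a binding site.

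Slc25a4 itself had log2 levels of -0.12, -0.04, -0.09, -0.23 and -0.03 in prostate tumors, against 1.65, 1.35, 1.47 and 1.81 in normal prostates. The tumor and normal arrays did not overlap, and the change was -1.67 (SE 0.17, adjusted p = 2.86e-10). In mammary tumors the levels were -0.57, -0.29, -0.45 and -0.52, against 0.02, 0.01, 0.25 and 0.87 in normal mammary glands (change -0.74, SE 0.18, adjusted p = 0.00105), and in lung tumors they were -1.005, -0.69, -0.29 and -0.63, against 0.07, -0.25, -0.17 and 0.22 in normal lungs (change -0.62, SE 0.18, adjusted p = 0.00542). Every tumor array again lay below every normal array at both sites. In seminal vesicle tumors the levels ran from -0.97 over a median of -0.63 to -0.18, against -0.98, -1.18, -0.72 and -0.49 in normal seminal vesicles, and the change of 0.23 (SE 0.16) did not pass (adjusted p = 0.253); after quantile normalization that change was -0.02.

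Slc25a4 is itself a muscle gene, and the skeletal muscle markers moved with it at some of these sites. In the prostate, the muscle list and Slc25a4 were both lower in tumors. Among normal mammary glands, replicate 4 had the highest muscle mean, 3.52, and the highest Slc25a4 level. Replicates 1 and 2 had muscle means of -0.20 and 0.09 and Slc25a4 levels of 0.02 and 0.01. The 4 mammary tumors had muscle means of 0.12 to 2.28 and Slc25a4 levels of -0.57 to -0.29. In the lung, muscle means were -0.27 to 0.44 in tumors and 0.20 to 0.50 in normal tissue. On the direct arrays the muscle list was -2.24 to -4.27 in the means of the 8 models. The part of muscle in the changes of Slc25a4 was not tested at any site or in any model.

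**Figure D1:**
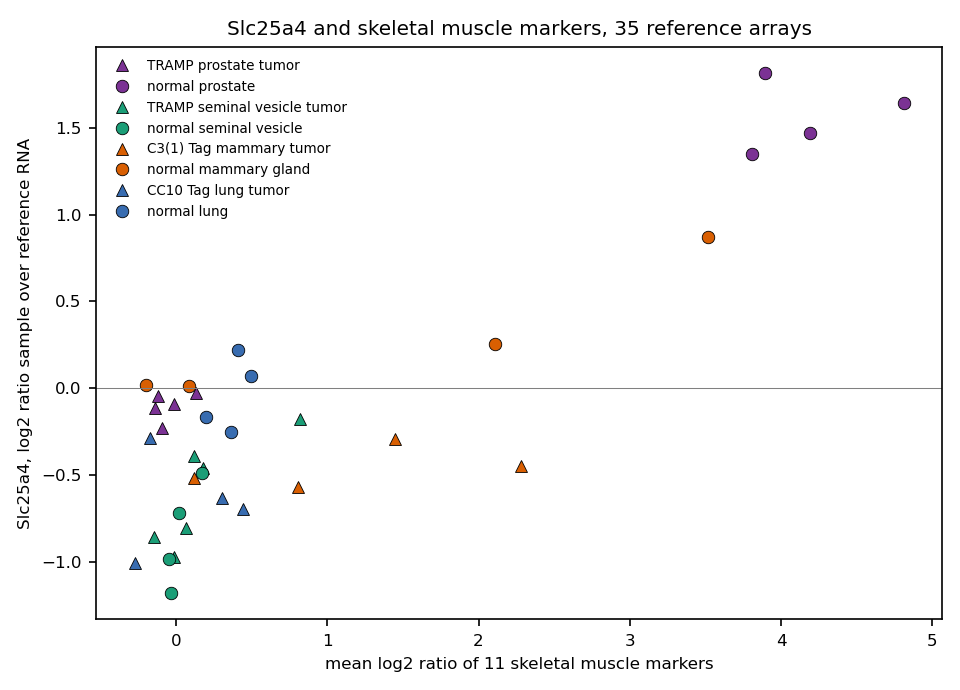
Log2 ratio of Slc25a4 (vertical axis) against the mean log2 ratio of 11 skeletal muscle markers (horizontal axis), with 1 point for each of the 35 reference arrays. Colours mark the site, triangles tumors and circles normal tissue. Normal prostates stand at the upper right, with muscle means of 3.81 to 4.81, and the tumors of the prostate stand near 0 on both axes.

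Slc25a5, the ADP/ATP carrier of dividing cells, had levels of -0.31, -0.41, -0.33, -0.49 and -0.49 in prostate tumors, against -0.04, 0.11, 0.03 and -0.02 in normal prostates, a change of -0.43 (SE 0.13, adjusted p = 0.00578). It also fell in mammary tumors (-0.51, SE 0.14, adjusted p = 0.00365), and its changes of -0.09 in seminal vesicle and 0.04 in lung tumors did not pass. Slc25a5 passed on the direct arrays in C3(1) tumors alone (-0.64, SE 0.26, adjusted p = 0.0468).

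Across all members, more solute carriers were lower than higher in tumors at each site. In prostate tumors 22 of 140 were higher and 57 lower, where 29.2% and 32.2% of all genes were. In seminal vesicle tumors 15 of 139 were higher and 49 lower, against 23.3% and 20.2% of all genes. In mammary tumors 11 of 140 were higher and 29 lower (16.6% and 20.1% of all genes), and in lung tumors 10 were higher and 32 lower (16.2% and 20.4% of all genes).

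In either direction, 61.4%, 43.5%, 36.7% and 36.5% of all genes were called at the prostate, seminal vesicle, mammary and lung sites. Changes of at least 2-fold that passed were made by 9, 3, 8 and 1 members (17.1%, 3.32%, 7.68% and 7.09% of all genes). Tumor and normal arrays did not overlap for 73, 51, 39 and 50 members, which is 52.1%, 36.7%, 27.9% and 35.7% of them, against 53.5%, 33.2%, 31.9% and 34.4% of all genes. The 2-fold shares of members were 6.43%, 2.16%, 5.71% and 0.714%, so they lay below those of all genes at each site, most of all in prostate and lung tumors, while the non-overlapping shares lay near theirs.

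As shares, members were lower in 40.7%, 35.3%, 20.7% and 22.9% of cases in prostate, seminal vesicle, mammary and lung tumors, and higher in 15.7%, 10.8%, 7.86% and 7.14%. The share of members called higher was thus below that of all genes at each of the 4 sites, while the shares called lower in mammary and lung tumors were near the background. The median member change was -0.19, -0.10, -0.04 and -0.13 at those sites, against -0.03, 0.04, -0.02 and -0.06 for all genes. A set of 51 other genes of the ABC, ion pump, aquaporin and organic anion transporter families, not all of them transporters, also had more falls than rises. Of these, 9 rose and 28 fell in prostate tumors, 10 and 15 in seminal vesicle, 3 and 16 in mammary, and 3 and 20 in lung tumors. Falls made up 54.9%, 29.4%, 31.4% and 39.2% at those sites, against 32.2%, 20.2%, 20.1% and 20.4% of all genes. Rises made up 17.6%, 19.6%, 5.88% and 5.88%, against 29.2%, 23.3%, 16.6% and 16.2% of all genes. The ABC transporter Abcb4, which exports phosphatidylcholine, fell by 1.80 in prostate tumors, and the adipocyte glycerol channel Aqp7 fell by 0.99 in mammary tumors.

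**Figure D2:**
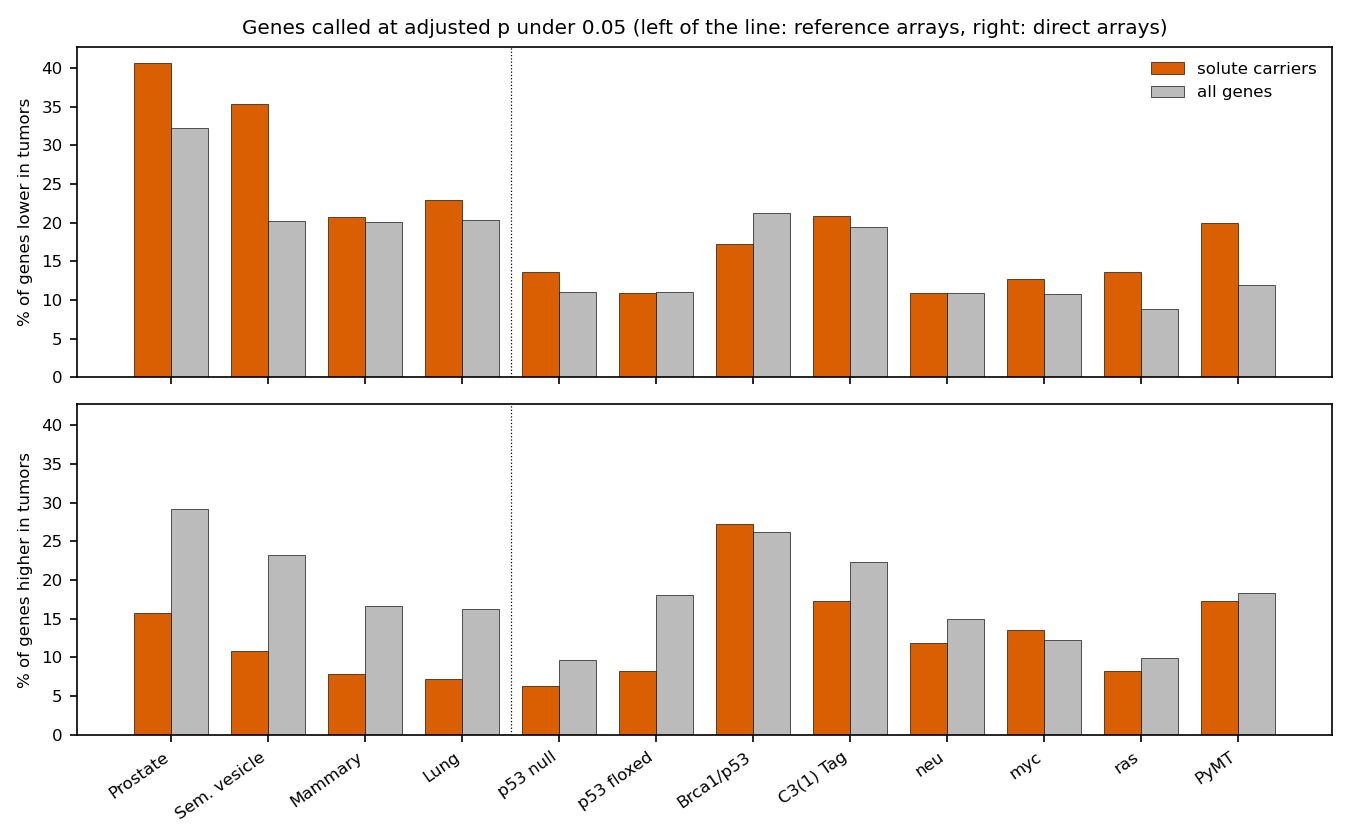
Percent of genes called lower (upper panel) and higher (lower panel) in tumors than in normal tissue, for the solute carriers and for all genes, in the 4 reference-array sites left of the dotted line and the 8 direct models right of it. In the lower panel the solute carriers lie below all genes at each of the 4 sites.

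Members were grouped by family number into roles, so a role can hold a gene of another function. In prostate tumors, where 29.2% of all genes were higher and 32.2% lower, the amino acid and peptide families had 6 of 26 up and 10 down, and the mitochondrial carriers 5 of 18 up and 7 down, which is near those shares. The inorganic ion families had 3 of 21 up and 10 down, or 3 of 19 up and 8 down without Slc9a3r1 and Slc4a1ap. The vitamin, choline and urea families had 0 of 8 up and 6 down (75% lower).

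Of 7 members of the sugar families none rose at any of the 4 sites, while 4 fell in prostate, 5 in seminal vesicle, 2 in mammary and 3 in lung tumors. They include Slc5a6, a transporter of biotin and pantothenate, and without it 3, 4, 2 and 3 of 6 fell. In seminal vesicle tumors, where 20.2% of all genes were lower, 13 of 26 members of the amino acid and peptide families were, or 11 of 23 without the monoamine transporters Slc6a2 and Slc6a4 and the creatine transporter Slc6a8. In mammary tumors 8 of 18 mitochondrial carriers were lower and 3 higher, against 20.1% and 16.6% of all genes.

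Of the 140 members, 118 were called at 1 or more sites (84.3%; 87% of all genes). Of all members, 75 were lower and never higher (53.6%; 36.8% of all genes), 19 were higher and never lower (13.6%; 29.2%), and 24 were called in opposite directions at different sites (17.1%; 20.9%). Slc38a7 and Slc25a16 were the only members lower at all 4 sites (0.797% of all genes were). The tumor change differed among the sites for 102 of 139 members (73.4%; F test, adjusted p under 0.05), against 74.1% of all genes, so the members varied between sites about as often as other genes. The members with the smallest F p were Slc26a2, Slc44a1, Slc7a5, Slc35f5 and Slc25a10.

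Amino acid carriers included some of the strongest site differences. Slc7a5, the catalytic chain of the large neutral amino acid transporter, had levels of -1.55 to -0.82 (median -1.10) in the 6 seminal vesicle tumors, against 0.45, 0.18, 0.40 and -0.05 in normal seminal vesicles. The groups did not overlap, and the change was -1.43 (SE 0.14, adjusted p = 9.58e-09). In prostate tumors its levels were -0.83, -1.12, -1.11, -1.09 and -1.43, against -2.07, -1.68, -1.47 and -1.90 in normal prostates, a rise of 0.67 (SE 0.15, adjusted p = 0.000249).

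In lung tumors Slc7a5 stood at -1.04, -1.12, -1.06 and -0.92, against -1.90, -1.74, -1.61 and -1.59 in normal lungs, a rise of 0.67 (SE 0.16, adjusted p = 0.000887). Tumors of the seminal vesicle, prostate and lung lay close together, and of these 3 normal tissues the seminal vesicle stood apart. Its change of 0.26 in mammary tumors did not pass on the reference arrays (adjusted p = 0.195), and the changes at the 4 sites differed (F = 47.2, adjusted p = 2.27e-10).

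Slc7a1, the cationic amino acid transporter, followed the same order: it rose by 0.95 (SE 0.13) in prostate and 0.87 (SE 0.14) in lung tumors and fell by 0.58 (SE 0.13) in seminal vesicle tumors, with no overlap between tumor and normal arrays at any of the 3 sites. Slc1a5, the glutamine transporter, had levels of 0.31, 0.08, 0.33, 0.46 and 0.36 in prostate tumors, against -0.50, -0.88, -0.59 and -0.67 in normal prostates, a rise of 0.97 (SE 0.12, adjusted p = 3.69e-08). It also rose in lung tumors (0.50, SE 0.13) and in seminal vesicle tumors (0.45, SE 0.12), and was -0.04 in mammary tumors, which did not pass. Slc3a2, the chain that brings Slc7a5 to the membrane, was lower in seminal vesicle tumors (-0.33, adjusted p = 0.0433) and in lung tumors (-0.47, SE 0.14, adjusted p = 0.0105). The first call was lost in 8 of 10 fits with an array of that site left out (-0.34 to -0.29 in those) and with the array number run, a stretch of consecutive array numbers, as a factor (adjusted p = 0.256). The second was lost without lung tumor replicate 1 or 2 or normal lung replicate 4 (-0.36 each).

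Slc6a8, the creatine transporter, went in opposite directions by site. It had levels of -0.12, -0.18, -0.45, -0.32 and -0.26 in prostate tumors, against 0.59, 0.47, 0.48 and 0.50 in normal prostates (-0.77, SE 0.18). In mammary tumors it stood at 0.06, -0.52, -0.09 and 0.29, against -0.97, -0.92, -0.74 and -0.55 in normal mammary glands (0.73, SE 0.19, adjusted p = 0.0031). Slc38a7 fell at every site, with changes of -1.58 (SE 0.10) in prostate, -0.57 (SE 0.10) in seminal vesicle, -0.48 (SE 0.11) in mammary and -0.63 (SE 0.11) in lung tumors, with no tumor array overlapping a normal one of its site.

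Slc43a1, a transporter of large neutral amino acids, had levels of 0.35, 0.55, 0.92 and -0.09 in mammary tumors, against 1.28, 0.98, 1.45 and 2.06 in normal mammary glands (-1.01, SE 0.19), and it fell by 0.93 (SE 0.18) in prostate tumors. Slc7a7, a chain of the cationic amino acid exchanger, rose in seminal vesicle tumors (0.52, SE 0.11, adjusted p = 0.000516). Slc6a2, which carries noradrenaline and not an amino acid, had levels of -0.09, 0.03, 0.01 and -0.05 in lung tumors, against 0.89, 0.60, 0.38 and 1.21 in normal lungs (-0.79, SE 0.12, adjusted p = 4.54e-06). All 4 lung tumors lay near the level of the reference RNA.

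Slc6a14, a transporter of neutral and cationic amino acids, had levels of 0.16, 0.02, 0.05, 0.02 and -0.14 in prostate tumors, against 0.75, 0.66, 1.14 and 0.93 in normal prostates (-0.85, SE 0.19, adjusted p = 0.000263), and its changes at the other 3 sites did not pass. It was lower in 6 of 8 models on the direct arrays, at -0.50 to -0.85. Slc6a20a, a transporter of proline and other imino acids, was lower in seminal vesicle (-0.64, SE 0.12) and mammary tumors (-0.42, SE 0.13, adjusted p = 0.0112). On the direct arrays it was lower in the 5 FVB models, with -0.95, -0.67, -1.07, -0.62 and -1.28 in PyMT tumors, where the change was -0.92 (SE 0.15). It did not pass in the p53 null (-0.40), p53 floxed (-0.34) and Brca1 (-0.32) models, the last with values on 3 arrays only.

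Among the ion transporters, Slc26a2, the sulfate transporter, had the largest fall of any member at any site. Its levels were -0.18, -0.02, -0.23, -0.23 and -0.47 in prostate tumors, against 2.05, 2.15, 1.79 and 2.61 in normal prostates, a change of -2.38 (SE 0.16, adjusted p = 1.69e-14). In lung tumors it went the other way, with 1.43, 1.14, 1.58 and 1.46, against 0.48, 0.32, 0.40 and 0.76 in normal lungs (0.91, SE 0.16, adjusted p = 4.57e-05). The site differences gave the highest F of the members (83.0, adjusted p = 3.88e-13).

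Slc26a3, a chloride/bicarbonate exchanger, had levels of 0.04, 0.06, 0.18, 0.07 and -0.25 in prostate tumors, against 1.88, 1.00, 1.90 and 1.42 in normal prostates (-1.53, SE 0.21). It ranged from 0.38 to 1.22 (median 0.91) in seminal vesicle tumors, against 3.08, 1.64, 2.37 and 2.86 in normal seminal vesicles (-1.59, SE 0.21, adjusted p = 4.89e-07). No tumor array reached a normal array at either site, and its changes of 0.10 in mammary and -0.13 in lung tumors did not pass.

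Slc4a4, the sodium bicarbonate cotransporter, stood at -0.42, -0.96, -1.10, -1.02 and -1.03 in prostate tumors, against 0.77, 0.58, 0.65 and 0.78 in normal prostates (-1.60, SE 0.21, adjusted p = 5.31e-08). Its 2 features gave -1.30 and -1.90. It was 0.58 (SE 0.22) higher in lung tumors, with the features at 0.87 and 0.30, and that call was lost (adjusted p of 0.0558 to 0.0833) when any of lung tumor replicates 1, 2 and 4 or normal lung replicates 1, 2 and 4 was left out. Slc12a7, a potassium/chloride cotransporter, rose by 0.77 (SE 0.16) in prostate tumors and by 0.66 (SE 0.15) in seminal vesicle tumors. Slc24a3, a potassium-dependent sodium/calcium exchanger, had levels of -0.60, -0.13, -0.15 and -0.55 in mammary tumors, against 1.35, 1.36, 1.30 and 1.87 in normal mammary glands, a change of -1.83 (SE 0.14, adjusted p = 7.15e-12).

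Among mitochondrial carriers other than the ADP/ATP carriers, Slc25a13, the aspartate/glutamate carrier, was the only member called higher in prostate, mammary and lung tumors alike, which 5.49% of all genes were. It had levels of 1.46, 0.81, 1.76 and 0.71 in mammary tumors, against -0.49, -0.59, -0.38 and -0.74 in normal mammary glands, a rise of 1.74 (SE 0.14, adjusted p = 9.98e-12). It rose by 0.59 (SE 0.13) in prostate and 0.57 (SE 0.14) in lung tumors. On the direct arrays it passed, higher, in the Brca1, C3(1), myc and ras models, at 0.35 to 0.75.

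Slc25a20, the carnitine/acylcarnitine carrier of fatty acid oxidation, stood at -0.21, -0.28, -0.22, -0.24 and -0.24 in prostate tumors, against 0.47, 0.40, 0.52 and 0.14 in normal prostates (-0.62, SE 0.10, adjusted p = 3.8e-06). The prostate tumors differed little among themselves, and the groups did not overlap. It was -0.45 (SE 0.10) in seminal vesicle tumors, a call lost with the array number run as a factor (-0.29, adjusted p = 0.4). Its changes in mammary (-0.19) and lung tumors (-0.07) did not pass. In the direct comparison it was lower in the Brca1 (-0.66), C3(1) (-0.77), ras (-0.47) and PyMT (-0.56) models.

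Slc25a10, the dicarboxylate carrier, fell in mammary and prostate tumors and rose in lung tumors. It stood at 0.01, 0.03, 0.04 and 0.16 in mammary tumors, against 1.35, 1.02, 1.91 and 1.03 in normal mammary glands (-1.27, SE 0.12, adjusted p = 6.75e-10). In lung tumors it stood at 0.66, 0.55, 0.57 and 0.41, against 0.09, 0.37, -0.02 and 0.15 in normal lungs (0.40, SE 0.12, adjusted p = 0.0104). Its smaller fall in prostate tumors was -0.44 to -0.36 with an array left out, and kept its call in each of those fits. This gene is abundant in fat, and the adipocyte list moved with it in the mammary gland on the reference arrays. On the direct arrays Slc25a10 was lower in 1 of 8 models and higher in 0, with means of -0.70 to 0.19. The adipocyte list was at -2.05 to -3.62 in the means of those models. Its part in the values of Slc25a10 was not tested. Slc25a16, a mitochondrial carrier of the coenzyme A pathway, fell in prostate (-0.67, SE 0.10) and seminal vesicle tumors (-0.54, SE 0.09). Its smaller falls in mammary (-0.33) and lung tumors (-0.28) were lost without mammary tumor replicate 4 (-0.26) and without any of lung tumor replicates 1 and 3 and normal lung replicates 1, 2 and 3 (-0.24 to -0.28).

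Members lower in prostate, mammary and lung tumors alike numbered 6, where 4.42% of all genes were: Slc25a4, Slc25a16, Slc38a7, Slc24a3, Slc16a1 and Slc50a1. Of the prostate tumors, 4 of 5 lie in a run of array numbers that holds no normal prostate. With the run as a factor in the fit, the prostate calls of Slc24a3 (-0.28, adjusted p = 0.177) and Slc16a1 (-0.37, adjusted p = 0.0882) were lost, as were the mammary and lung calls of Slc25a16 (adjusted p of 0.0858 and 0.0685). Slc16a1, the lactate and pyruvate transporter, had levels of -2.02, -1.96, -1.59 and -1.55 in lung tumors, against -0.90, -0.86, -0.76 and -0.89 in normal lungs (-0.93, SE 0.15, adjusted p = 6.73e-06), and it also fell in prostate (-0.47, SE 0.14) and mammary tumors (-0.52, SE 0.15). In seminal vesicle tumors it was higher (0.35, adjusted p = 0.0353), a call lost with the run as a factor (adjusted p = 0.0774), and a direction that turned after quantile normalization (-0.31, adjusted p = 0.0642). Slc50a1, a sugar efflux transporter, fell in prostate (-0.90, SE 0.12), mammary (-0.84, SE 0.13) and lung tumors (-0.46, SE 0.13). The direct mammary arrays did not repeat its mammary fall: it was higher in 4 of 8 models and lower in 0, with model means of -0.16 to 0.56. Slc16a7, a related monocarboxylate transporter, stood at 0.18, 0.21, 0.47 and 0.54 in mammary tumors, against 1.79, 1.15, 1.51 and 1.15 in normal mammary glands (-1.05, SE 0.31, adjusted p = 0.00701).

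Slc2a1, the glucose transporter of most dividing cells, was slightly lower rather than higher in tumors of 3 sites on the reference arrays. Its levels were -1.89, -1.80, -1.85, -2.13 and -2.22 in prostate tumors, against -1.86, -1.69, -1.59 and -1.03 in normal prostates, and the groups overlapped. The changes were -0.44 in prostate, -0.41 in seminal vesicle and -0.50 in lung tumors (adjusted p of 0.0243, 0.0386 and 0.0266), and 0.35 in mammary tumors (adjusted p = 0.128). Each of these calls was lost when single arrays were left out, for example without normal prostate replicate 4 (-0.27), normal seminal vesicle replicate 4 (-0.30) or normal lung replicate 3 (-0.39), and the mammary value passed without normal mammary replicate 4 (0.49). With the array number run as a factor the prostate and seminal vesicle calls were lost (adjusted p of 0.127 and 0.776).

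Choline, nucleoside, metal and other transporters also had single members with clear changes. Slc44a1, the choline transporter, had levels of 1.72, 1.33, 2.17 and 1.60 in mammary tumors, against 0.45, -0.14, 0.17 and -0.23 in normal mammary glands, a rise of 1.64 (SE 0.14, adjusted p = 7.73e-11). It fell by 0.73 (SE 0.14) in prostate tumors and rose by 0.76 (SE 0.13) in seminal vesicle tumors. Slc14a1, the urea transporter, stood at 1.11, 1.81, 0.89 and 2.21 in mammary tumors, against 0.04, 0.27, 0.16 and 0.46 in normal mammary glands (1.27, SE 0.19, adjusted p = 2.76e-06).

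Slc28a2, the purine nucleoside cotransporter, had levels of 0.35, 0.76, 0.57 and 0.24 in mammary tumors, against 2.20, 1.58, 1.92 and 2.07 in normal mammary glands (-1.46, SE 0.14, adjusted p = 9.52e-10). It also fell in prostate (-0.83, SE 0.14) and seminal vesicle tumors (-0.44, SE 0.13). Slc29a1, the equilibrative nucleoside transporter, rose by 0.45 in prostate, 0.44 in seminal vesicle and 0.69 in mammary tumors and fell by 0.58 in lung tumors (SE 0.15 to 0.16). The seminal vesicle call was lost after quantile normalization (0.19, adjusted p = 0.405) and without normal seminal vesicle replicate 1 (0.39, adjusted p = 0.0578), and the value was 1.41 with the array number run as a factor (adjusted p = 0.00401). In the mammary tumors 1 array, replicate 4, stood at 0.93 and the other 3 at -0.01 to 0.10, all above the normal glands.

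Slc35f5, a member of the nucleotide sugar transporter family, had levels of 0.01, -0.25, -0.08, -0.12 and -0.18 in prostate tumors, against 1.44, 1.42, 1.25 and 1.38 in normal prostates (-1.50, SE 0.11, adjusted p = 3.66e-13). Its changes of -0.22, 0.19 and -0.28 in seminal vesicle, mammary and lung tumors did not pass. Slc11a1, the metal transporter of phagocyte vesicles, rose in prostate tumors (0.76, SE 0.12), while the mean of 4 macrophage markers was 0.12 ± 0.24 in prostate tumors and 0.32 ± 0.20 in normal prostates. Slc22a17, a receptor for lipocalin-bound iron, stood at 1.70, 1.65, 2.27, 1.48 and 1.46 in prostate tumors, against 0.63, 1.00, 0.59 and 0.86 in normal prostates (0.94, SE 0.16, adjusted p = 8.87e-06). The neuroendocrine marker list (6 genes measured) also moved at this site, at 2.40 ± 0.32 in prostate tumors and -0.04 ± 0.03 in normal prostates, and its part was not tested.

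In lung tumors Slc34a2, the phosphate transporter of alveolar type II cells, had levels of 0.04, 0.65, 1.07 and 0.54, against 2.69, 1.07, 1.90 and 2.14 in normal lungs, a change of -1.38 (SE 0.23, adjusted p = 1.72e-05). The mean of 6 airway and alveolar markers was 3.07 ± 0.19 in those tumors and 3.57 ± 0.33 in normal lungs. Slc48a1, the heme transporter, stood at -1.43, -1.06, -1.07 and -1.09 in lung tumors, against -0.24, -0.36, -0.28 and -0.02 in normal lungs (-0.94, SE 0.12), and fell in mammary tumors (-0.86, SE 0.12). On the direct mammary arrays Slc48a1 had model means of 0.03 to 0.45, and was higher in 1 of 8 models and lower in 0. Slc22a5, the carnitine transporter, fell in lung (-0.78, SE 0.19) and mammary tumors (-0.61, SE 0.19). Slc35e3, a nucleotide sugar transporter family member, fell by 0.57 (SE 0.11) in lung and rose by 0.58 (SE 0.11) in prostate tumors.

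**Figure D3:**
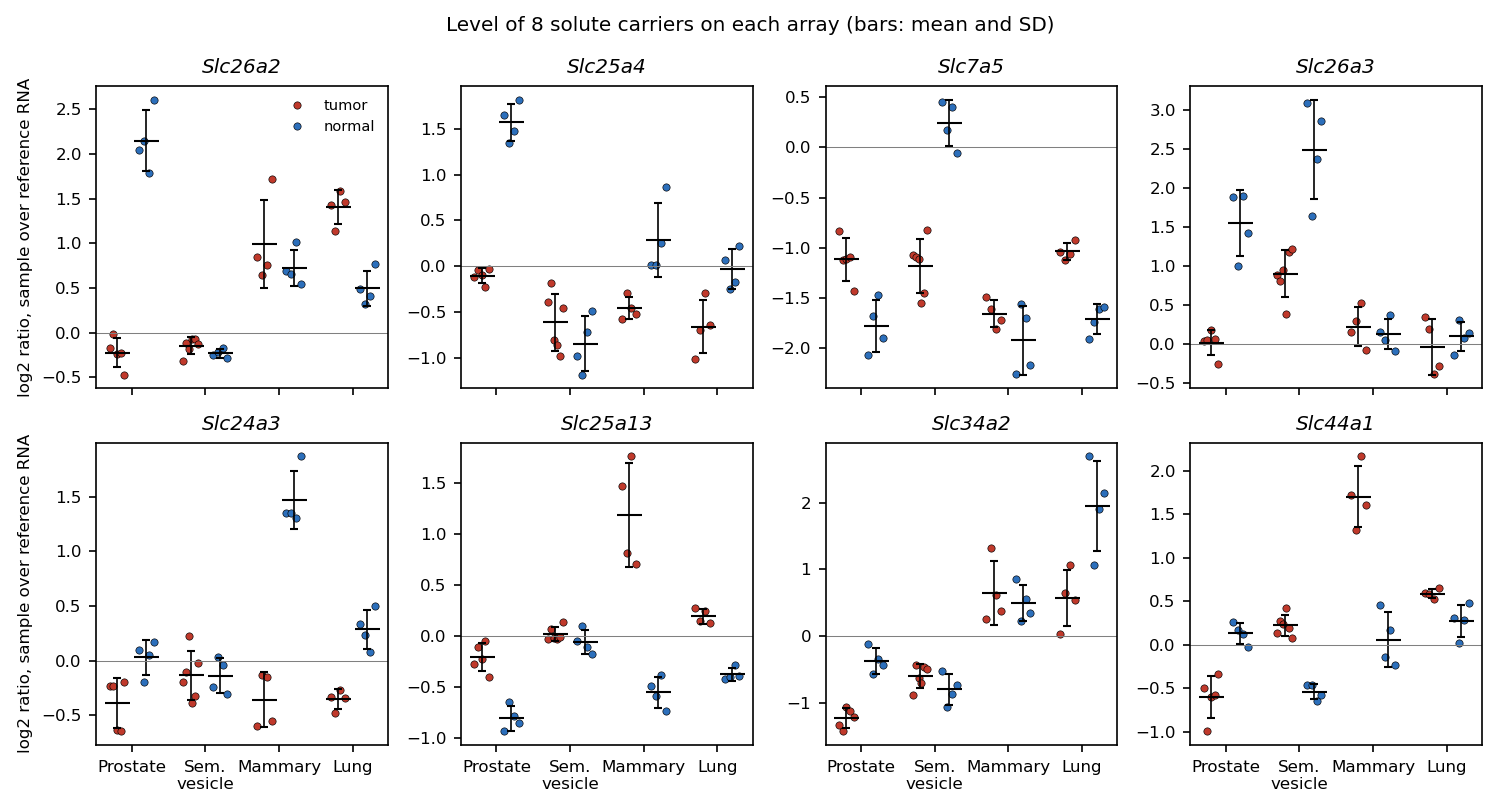
Log2 ratio of sample over reference RNA for 8 solute carriers on each of the 35 reference arrays, tumor left of normal at each site; points are arrays and bars the group mean with SD. Slc26a2 and Slc25a4 stand highest in normal prostates, and Slc7a5 stands at -0.05 to 0.45 in normal seminal vesicles and at -0.82 or lower in all other groups.

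The normal seminal vesicle arrays form a single run of consecutive array numbers that holds no seminal vesicle tumor, and what the run stands for is not in the labels. With the run as a factor in the fit, 6 members were higher and 17 lower in seminal vesicle tumors, in place of 15 and 49. The falls of Slc7a5 and Slc26a3 kept their calls (-1.50 and -2.05 in that fit, adjusted p of 0.00613 and 0.0153). So did those of Slc46a1, the folate transporter, and Slc18b1, a polyamine transporter, which were -0.78 (SE 0.10) and -0.86 (SE 0.12) without the run and -0.94 and -1.15 with it (adjusted p of 0.0269 and 0.0187). The rises of Slc44a1, Slc12a7 and Slc1a5 and of Slc39a8, a zinc and manganese transporter (0.77, SE 0.18), did not (adjusted p of 0.0965, 0.113, 0.126 and 0.0527), and neither did the fall of Slc23a3, of the vitamin C transporter family (-0.74; adjusted p = 0.0668).

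Among the 4 normal tissues, 111 of 139 members differed (79.9%; 79.4% of all genes). The normal tissue of highest mean level was the seminal vesicle for 50 members, the mammary gland for 35, the prostate for 29 and the lung for 26 (29.7%, 28.3%, 19.5% and 22.6% of all genes). Above all 3 other normal tissues, each at an adjusted p under 0.05, were 30 members in seminal vesicle (15.7% of all genes were), 12 in mammary gland (9.15%), 9 in prostate (6.6%) and 8 in lung (6.49%). The seminal vesicle share, 21.6% of members, was thus above its background, while the other shares (8.63%, 6.47% and 5.76%) lay near theirs.

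In the normal seminal vesicle the widest margins over the next tissue were those of Slc7a5 (1.95 over lung, adjusted p = 5.54e-12), Slc7a1 (1.13 over lung), Slc6a8 (1.08 over prostate), Slc31a2, a copper transporter of endosomes (1.07 over prostate), and Slc9a3, a sodium/proton exchanger (1.01 over prostate). Slc9a3 stood at 1.06, 1.20, 1.31 and 1.43 in normal seminal vesicles, where its scaffold Slc9a3r1 also led by 0.72. With the array number run as a factor the Slc6a8 margin was 0.63 and did not pass (adjusted p = 0.135). In the normal prostate the leading members were Slc26a2 (1.42 over mammary gland), Slc25a4 (1.28), Slc3a1, a chain of the cystine transporter (1.03 over lung), Slc41a3, a mitochondrial magnesium transporter (0.92 over lung), and Slc38a1, a glutamine transporter (0.79 over lung).

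In the normal mammary gland the widest margins were those of Slc28a2 (1.34 over prostate), Slc24a3 (1.18 over lung), Slc25a10 (0.99 over seminal vesicle), Slc22a4, the ergothioneine transporter (0.85 over lung), and Slc25a44, a mitochondrial carrier of branched-chain amino acids (0.65 over prostate). In the normal lung they were those of Slc34a2 (1.46 over mammary gland, adjusted p = 7.94e-06), Slc6a2 (0.56 over seminal vesicle), Slc35e3 (0.56 over mammary gland), Slc39a8 and Slc14a1. The last pair passed narrowly (0.51 and 0.49, adjusted p of 0.0485 and 0.0387). The Slc14a1 call was lost when any of normal lung replicates 1, 3 and 4 or normal prostate replicates 1 to 3 was left out (0.42 to 0.52). The Slc39a8 call was lost without any of the normal mammary arrays (0.50 to 0.53) and without most others, and 1 normal seminal vesicle array has no value for it.

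Members highest in a normal tissue were often lower in the tumors of that tissue. The grouping and the changes use the same normal arrays, so a fall is favoured by the choice, and these counts are a description. Of 50 members highest in normal seminal vesicle, 37 were lower in its tumors (74%; 56.3% of all genes grouped the same way), and none was higher. Of 26 highest in normal lung, 16 were lower in lung tumors (61.5%; 40.4% of all genes). Of 35 highest in normal mammary gland, 18 were lower in mammary tumors (51.4%; 41.3%), and of 29 highest in normal prostate, 15 were lower in prostate tumors (51.7%; 53.9%).

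The median changes of these 4 sets in their own tumors were -0.42, -0.47, -0.31 and -0.31, against -0.33, -0.23, -0.24 and -0.36 for all genes grouped the same way. Members highest in normal seminal vesicle were also often lower in prostate tumors, 25 of 50 (36.5% of all genes of that grouping). Members also rose in the tumors of the tissue where their normal level was highest: 5 of 29 did so for the prostate, 1 of 35 for the mammary gland, and none of 50 for the seminal vesicle or of 26 for the lung (14.7%, 10.4%, 1.94% and 13.4% of all genes grouped the same way). The 5 prostate members included Slc38a1 (0.67, SE 0.22) and Slc22a17. In the seminal vesicle Slc31a2 stood at 1.03 to 2.62 (median 1.94) in tumors, against 1.72, 2.25, 1.97 and 2.50 in normal tissue, a change of -0.20 that did not pass.

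**Figure D4:**
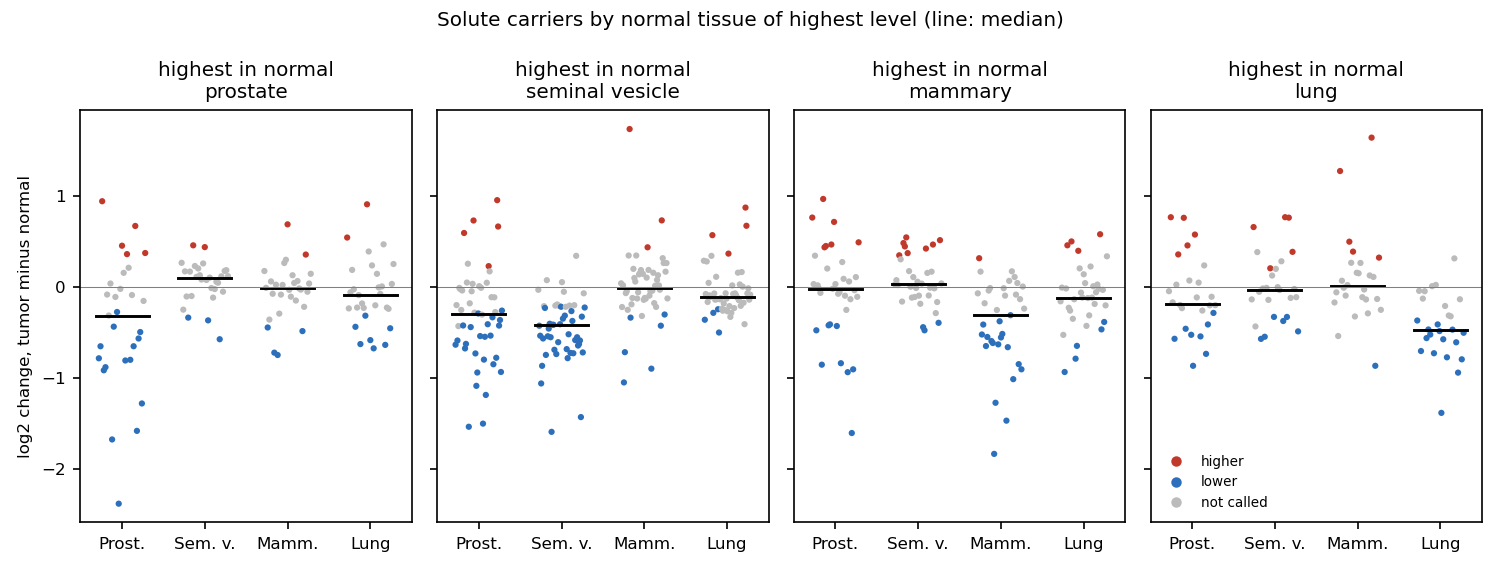
Log2 change, tumor minus normal, of each member in tumors of the 4 sites, in 1 panel for each normal tissue of highest level; each point is a gene and each line a median. The medians in the tumors of the tissue itself lie between -0.31 and -0.47, and those arrays share the normal samples that set the grouping.

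The direct arrays do not share the normal arrays of the reference set. There, of 27 members highest in normal mammary gland, 4 to 8 were lower in each of the 8 models (14.8% to 29.6%). Of 21 members highest in normal lung, 0 to 2 were lower (0% to 9.52%). Of all genes grouped the same way, 11.5% to 25% and 6.38% to 17.1% were lower. Over all genes too, the mammary grouping had a higher share than the lung grouping in each model. It was not the highest of the 4 groupings throughout. Of members highest in normal prostate, 15% to 20% were lower (10.2% to 27.4% of all genes grouped the same way). For the seminal vesicle these shares were 4.76% to 21.4% (3.51% to 30%). In the PyMT model, 8 of the 27 members highest in normal mammary gland (29.6%) were lower, where 12.9% of all genes of that grouping were. In the p53 floxed model the share was 14.8%, against 15.3%. Across the 110 members measured both ways, the change in C3(1) tumors on direct arrays and that on reference arrays correlated at r = 0.43 (Spearman rho = 0.35), against 0.50 and 0.38 over 5752 genes; genes are not independent replicates.

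Of 110 members on the direct arrays, 7 were higher and 15 lower in p53 null transplants (9.66% and 11.1% of all genes), 9 and 12 in p53 floxed tumors (18% and 11.1%), and 30 and 19 in Brca1 tumors (26.2% and 21.2%). In the FVB models, 19 were higher and 23 lower in C3(1) tumors (22.4% and 19.5%), 13 and 12 in neu tumors (15% and 10.9%), 15 and 14 in myc tumors (12.2% and 10.9%), 9 and 15 in ras tumors (9.97% and 8.89%), and 19 and 22 in PyMT tumors (18.3% and 12%). The PyMT share of falls (20%) lay above its background, and the p53 floxed share of rises (8.18%) lay below its own. Changes of at least 2-fold that passed were made by 4 members in p53 null, 6 in p53 floxed and 10 in Brca1 tumors (5.6%, 10.7% and 12.1% of all genes). They were made by 6 members in C3(1), 6 in neu, 5 in myc, 3 in ras and 8 in PyMT tumors (8.03%, 5.93%, 5.29%, 4% and 6.59% of all genes).

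These splits depend on centring each array on its median. As deposited, the median of all genes was 0.24, 0.36, 0.21 and 0.18 in the Brca1, C3(1), myc and ras models, and the members split 41 higher to 13 lower, 38 to 7, 24 to 3 and 22 to 6 there. It was 4 to 8 in p53 null, 5 to 14 in p53 floxed, 7 to 10 in neu and 13 to 18 in PyMT tumors, where the medians lay between -0.08 and -0.03. After quantile normalization of the direct arrays the split was 15 to 18 in p53 null, 8 to 16 in p53 floxed and 21 to 18 in ras tumors. No called value of a named gene lost its call on the direct arrays when they were used as deposited.

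Slc25a4 had log2 tumor over normal values of -2.65, -2.48, -2.06, -2.39 and -1.67 in p53 null transplants, a change of -2.25 (SE 0.25), and the model means ran from -1.61 (neu) to -2.31 (Brca1). All 36 arrays with a value were below 0. Slc25a42 ran from -0.38 (p53 null) to -1.08 (Brca1), and Slc38a7 from -0.46 (neu) to -1.01 (PyMT). The changes of Slc25a4 did not differ significantly among the 8 models (F = 1.03), nor did those of Slc38a7 (adjusted p = 0.634).

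Other members fell in nearly every model. Slc24a3 was lower in 7 models, at -0.80 to -1.36, and was -0.39 in myc tumors, where 1 array stood at 1.11 and the other 3 at -0.77 or lower. Slc28a2 was lower in 7, at -0.56 to -1.06, and -0.38 in p53 floxed tumors (adjusted p = 0.0634). Slc24a3, Slc28a2 and Slc25a4 also fell in C3(1) mammary tumors on the reference arrays. The adipocyte list, at -2.05 to -3.62 in the means of the 8 models, moved with these falls, and its part was not tested. Slc15a2, a peptide transporter, fell in the p53 floxed (-1.39, SE 0.28) and Brca1 (-1.13, SE 0.25) models, and Slc27a2, a very long chain acyl-CoA synthetase, in p53 null (-0.998, SE 0.16) and 5 other models (-0.50 to -0.98).

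No member was higher in all 8 models (0.988% of all genes were). Slc6a8, Slc7a5 and Slc31a1, the copper importer, were each higher in 6, and Slc31a1 is named here after its values were seen. Slc6a8 had values of 1.76, 2.55, 2.10, 1.52 and 2.38 in PyMT tumors (2.06, SE 0.25, adjusted p = 4.32e-07) and 1.84, 1.10, 2.84 and 2.37 in C3(1) tumors (2.03, SE 0.28), where 1 array has no value. Its changes of 0.52 and 0.38 in the p53 null and p53 floxed models did not pass, and its models differed (F = 5.61, adjusted p = 0.00207). Its call in ras tumors (0.73) was lost without any of ras replicates 1 to 4 (0.63 to 0.77).

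Slc7a5 had values of 0.48, 1.19, 2.38, 1.99 and 0.45 in p53 null transplants (1.30, SE 0.28) and 1.47, 1.42, 1.58 and 0.24 in myc tumors (1.18, SE 0.32). Its means were 0.76 to 1.30 in all 8 models, and the model differences did not pass (adjusted p = 0.826). Its changes of 0.80 in both p53 floxed and ras tumors missed the threshold (adjusted p of 0.0541 and 0.0744). Slc31a1 was 0.35 to 0.66 in the 6 models in which it was higher. Metal transporters as a role had 7 of 12 higher and 1 lower in Brca1 tumors (26.2% and 21.2% of all genes), 4 and 0 in PyMT tumors (18.3% and 12%), and none lower in any model other than Brca1.

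Among the 110 members, 37 differed between the 8 models (33.6%), against 42.1% of all genes. Slc2a1, the glucose transporter, stood out in Brca1 tumors, with values of 2.44, 3.33, 2.33, 1.83 and 0.69, a change of 2.12 (SE 0.22, adjusted p = 1.93e-09). In p53 null transplants it was 0.60 (SE 0.22, adjusted p = 0.045), and in the other 6 models it was 0.14 to 0.70 and did not pass. The model differences passed (F = 7.93, adjusted p = 0.000237). Slc2a10, another glucose transporter family member, was 1.46 (SE 0.21) in Brca1 and 1.29 (SE 0.21) in PyMT tumors, and Slc4a2, an anion exchanger, was 1.20 (SE 0.18) in Brca1 tumors.

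Slc35a1, the CMP-sialic acid transporter of the Golgi, was higher in the 5 FVB models and in none of the 3 others. Its values were 1.32, 2.20, 1.83, 1.33 and 2.08 in PyMT tumors, 1.55, 0.70, 2.56, 0.28 and 1.92 in C3(1) tumors and 0.32, 0.96, 1.25, 0.89 and 0.55 in ras tumors. The means were 0.79 to 1.75 in the FVB models and -0.43, 0.20 and 0.24 in the p53 floxed, p53 null and Brca1 models. Strain and oncogene cannot be told apart in this split, and the FVB models alone did not differ at the threshold (F = 2.74, adjusted p = 0.181). On the reference arrays Slc35a1 was 0.07 (SE 0.12) in C3(1) tumors against FVB mammary gland, which did not pass.

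Slc22a6, the organic anion transporter best known from the kidney, had the same split, at 0.39 to 0.94 in the FVB models and -0.13 to 0.26 in the others (F = 7.86, adjusted p = 0.000231). Slc16a1, the lactate transporter, had values of -1.98, -1.92, -1.88 and -1.18 in neu tumors (-1.74, SE 0.22; 1 array has no value) and was -1.01 to -1.74 in the 5 FVB models. It was -0.54 (SE 0.19) in Brca1 tumors, while its changes of -0.13 and 0.53 in p53 null and p53 floxed tumors did not pass (F = 13.4, adjusted p = 5.27e-06). Slc16a7 was lower in p53 floxed tumors (-1.03, SE 0.21), where 1 array has no value, and higher in PyMT tumors (0.57, SE 0.16).

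Slc4a1, the anion exchanger of red blood cells, was not called at any of the 4 sites. It had direct-array values of 0.30, 0.81, 0.96, 0.57 and 0.85 in C3(1) tumors (0.70, SE 0.14, adjusted p = 0.000147), all above 0. In p53 null transplants it had -0.16, -0.38, -0.69, -0.53 and -0.48 (-0.45, SE 0.14, adjusted p = 0.0171), all below 0, and the models differed (adjusted p = 0.000349).

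**Figure D5:**
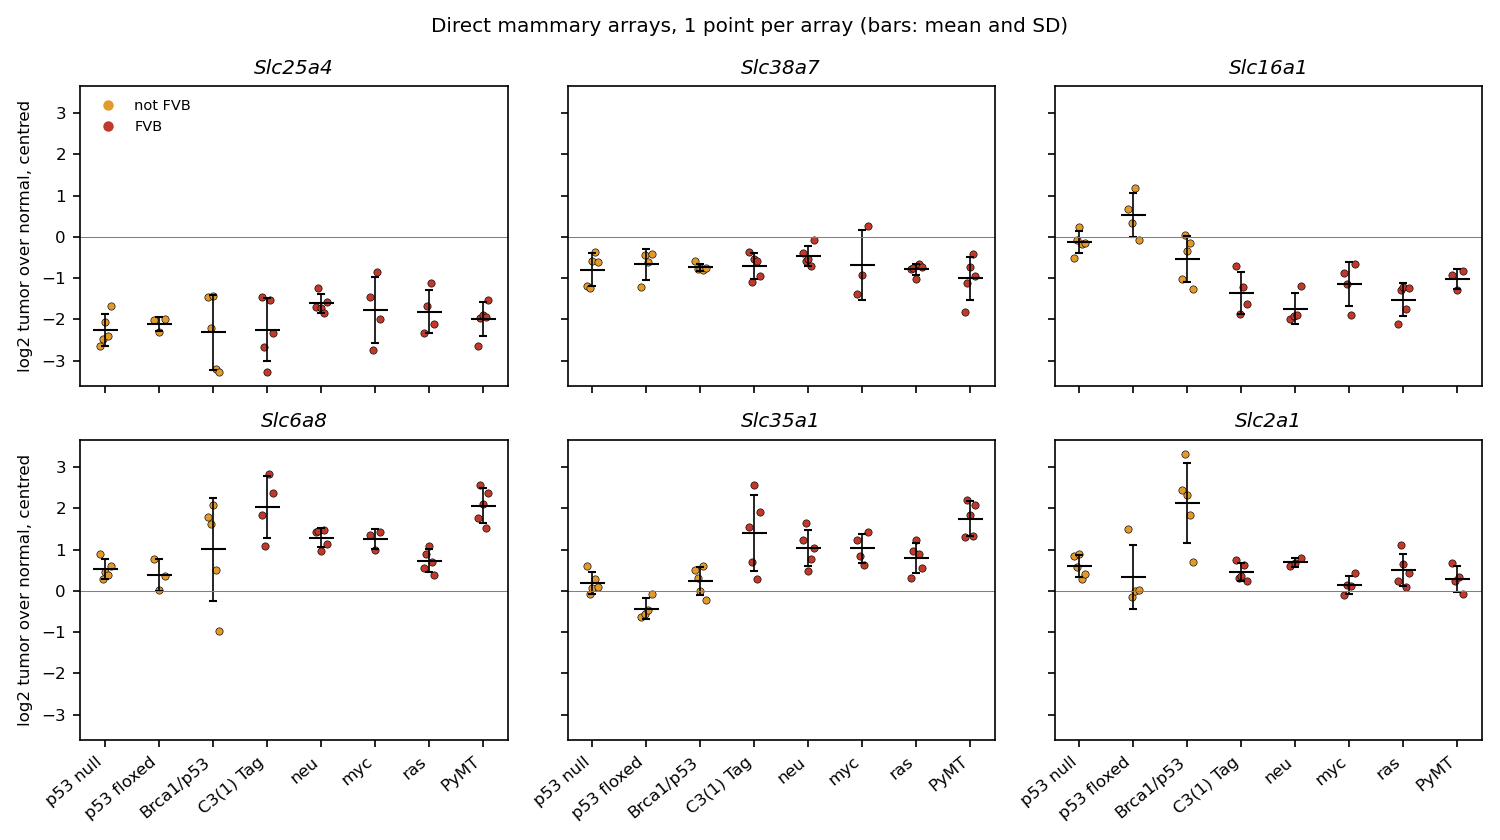
Log2 tumor over normal mammary gland on each direct array, centred on the array median, for 6 solute carriers in the 8 models; points are arrays and bars the model mean with SD. Slc25a4 lies below 0 on every array with a value, Slc2a1 stands highest in Brca1 tumors, and Slc35a1 is above 0 on all arrays of the 5 FVB models.

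Other members with the largest rises by model were Slc1a1, a glutamate transporter, at 2.06 (SE 0.41) in p53 floxed, 1.12 (SE 0.31) in neu and 1.01 (SE 0.31) in p53 null tumors, the last lost without p53 null replicate 1 or 5 (0.86 and 0.85). In p53 floxed tumors 1 array has no value for Slc1a1, so no array with a value could be left out there. Slc1a1 fell by 0.55 in C3(1) mammary tumors on the reference arrays. Slc20a1, a phosphate transporter, was 1.17 (SE 0.26) in p53 floxed and 0.89 (SE 0.23) in p53 null tumors. Without p53 floxed replicate 3 the first was 0.72, and without p53 null replicate 1 the second was 0.70, and neither passed. Slc41a1, a magnesium transporter, was 1.21 (SE 0.18) in neu tumors, and Slc9a3r1 was 1.07 (SE 0.19) in Brca1 tumors.

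The members whose 16 group means were most like those of Slc2a1 were Slc7a5, Slc3a2 and Slc39a1, a zinc importer. The reference and direct arrays form separate clusters in that comparison, so the likeness is given within each. Pearson's r with Slc2a1 over the 8 reference-array group means was 0.46 for Slc7a5, 0.58 for Slc3a2 and 0.44 for Slc39a1, and over the 8 direct-array means it was 0.31, 0.39 and 0.53. Slc9a3r1 was less like Slc2a1 over the 16 means, but its r was above those of Slc7a5, Slc3a2 and Slc39a1 within each set. It was 0.87 over the reference-array means and 0.68 over the direct-array means. The members picked by the 16 means are thus not those most like Slc2a1 within either set. All these r values are descriptions over groups that share arrays and reference RNA.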

How the data were processed

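The values are log2 ratios deposited by the authors in 1 table of 9596 cDNA features by 73 arrays; scale and direction are not given by the labels and were read from the values. The series' design text names a number of features picked by a fold rule: that rule picks 2638 of 9573 features if the ratios are log2, which is the number named, 3770 if they are natural logs and 4174 if they are log10. Per the labels, samples were in Cy3 and the universal reference RNA in Cy5 on reference arrays, and on direct arrays normal mammary gland was channel 1 and tumor channel 2, with no dye swap. Image analysis and normalization tools are not given in the sources used here. No intensities were used here, so weak signal could not be assessed, and 0 value columns were left unmapped. Values per array numbered 9244 to 9572 on reference arrays and 7042 to 7934 on direct arrays; the number of arrays limits the precision.

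Gene names come from the platform annotation (7486 features with 1 symbol, 483 with several, 1627 with none). By gene ID, 7395 of these symbols were matched to the RefSeq GRCm38.p6 table, whose symbol was used whether or not it differed. The other 91 were kept as deposited. Features of a gene were averaged. For Slc17a5 the 2 features, fitted singly, passed in opposite directions in prostate (0.35 and -0.30) and seminal vesicle tumors (0.34 and -0.44). Their average was called at no site. Direct arrays were centred on their medians (-0.42 to 0.66). limma 3.58.1 in R 4.3.3 was fitted to all genes with 3 or more values per group, 1 fit for the 35 reference arrays and 1 for the 38 direct arrays, with Benjamini-Hochberg adjustment over all genes of a comparison and a threshold of 0.05. In simulated data, 95.5% to 98.5% of 200 genes with a log2 change of 1 were recovered on reference arrays (6767 to 6774 genes) and 81.5% to 92.5% on direct arrays (5768 genes).

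Genes are named by these rules: the 5 largest rises and falls per site with no overlap of groups, the 5 widest margins per normal tissue, the 3 largest rises and falls per direct model with all arrays on 1 side of 0, the shared calls, the 5 smallest F p-values of each kind, the 3 members most like Slc2a1, and a fixed list of 22 well-known transporters, of which 15 were measured. The members, roles and lists were chosen with earlier results of these data known. Alternatives tried were quantile normalization, median centring, uncentred values, features fitted singly, complete genes only, single sites or models, array number runs, a replicate block, FVB models only and leaving out each array. Equal replicate numbers did not pair samples: correlations of their deviations were -0.24 to 0.22.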

Additional observations from a re-analysis of the deposited data

Results flagged for a closer look

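In 7 of 158 groups of 4 to 6 arrays considered (4.43%), 1 array lay far from the others of its group by Dixon's criterion. Chance gives this in about 1 tested group in 20. Groups with fewer than 4 values, such as Slc25a4 in p53 floxed tumors, are counted in the 158 but could not be tested. Slc4a4 stood at -0.42 in prostate tumor replicate 1, against -1.10 to -0.96 in the other tumors. Slc29a1 stood at 0.93 in mammary tumor replicate 4, against -0.01 to 0.10 in the others, and Slc24a3 at 1.87 in normal mammary gland replicate 4, against 1.30 to 1.36. Slc48a1 stood at -1.43 in lung tumor replicate 1, against -1.09 to -1.06, and Slc50a1 at 0.43 in normal lung replicate 4, against -0.03 to 0.01. On the direct arrays, Slc16a1 stood at -1.18 in neu replicate 5, against -1.98 to -1.88, and Slc7a5 at 0.24 in myc replicate 4, against 1.42 to 1.58.

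The tumor change differed between sites by the F test of the interaction, with an adjusted p of 3.88e-13 for Slc26a2, 1.16e-10 for Slc44a1, 2.27e-10 for Slc7a5, 9.93e-10 for Slc35f5 and 1.13e-08 for Slc25a10. The change differed among the 8 direct models with an adjusted p of 5.27e-06 for Slc16a1, 1.24e-05 for Slc35a1, 0.000231 for Slc22a6, 0.000237 for Slc2a1 and 0.000258 for Slc16a7.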

How the results depend on the processing

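At the 4 sites, the counts of members higher and lower kept within 1.5 times of those reported under median centring, features fitted singly and each site fitted alone. Quantile normalization gave 9 members higher in seminal vesicle tumors, the array number run as a factor gave 6 higher and 17 lower there, and the largest run alone (1 prostate tumor and 3 normals, 3 and 3 in mammary gland and lung) gave 7 higher in mammary tumors. On the direct arrays as deposited, the counts were 4 higher and 8 lower in p53 null, 38 and 7 in C3(1), 24 and 3 in myc and 22 and 6 in ras tumors, with 5 higher in p53 floxed and 7 higher in neu tumors. Quantile normalization gave 15 higher in p53 null, 21 higher and 24 lower in neu and 21 higher in ras tumors.

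With genes that had a value on every direct array, so with fewer genes by construction, the counts higher and lower were 3 and 5 in p53 null, 2 and 4 in p53 floxed, 11 and 5 in Brca1, 6 and 8 in C3(1), 5 and 4 in neu, 8 and 2 in myc, 3 and 5 in ras and 7 and 8 in PyMT tumors, and 14 members differed among models. The run as a random block gave 4 and 8 in p53 null and 5 higher in p53 floxed tumors. Each model fitted alone gave 13 higher in p53 null, 5 higher in p53 floxed, 12 and 12 in Brca1, 23 and 26 in neu and 4 and 3 in myc tumors. Within the FVB models 12 members differed. The cause of these shifts was not tested where fewer genes or arrays do not show it.

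Leaving out single arrays gave 3 to 6 members higher and 9 to 14 lower in p53 null, 5 to 9 and 7 to 10 in p53 floxed, 12 to 16 and 17 to 25 in C3(1), 9 to 10 and 8 to 12 in myc, 4 to 10 and 10 to 14 in ras and 12 to 16 and 14 to 21 in PyMT tumors. The arrays that moved a count by over 1.5 times were p53 null replicates 1, 2, 4 and 5, p53 floxed 1 and 3, C3(1) 3, myc 1, ras 1 and 2 and PyMT 2 and 5. At the sites no single array did so.

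Among named genes, 1883 of 1968 values with an array left out stayed on their side of the threshold. After quantile normalization Slc16a1 in seminal vesicle tumors, called higher at 0.35, was -0.31 and not called. The other directions that turned belong to values that had not passed: Slc25a4 in seminal vesicle tumors was -0.024 after quantile normalization, and Slc25a5 there was 0.068 with the run as a factor and -0.17 to 0.035 with an array left out. Slc25a5 in lung tumors was -0.062 to 0.14 with an array left out, turning without normal lung replicate 2 or lung tumor replicate 1. In the largest run alone, 12 of 63 named calls were lost, among them Slc7a5 in prostate (0.31) and Slc38a7 in mammary tumors (-0.37). The replicate block within sites changed no count, and of 81 named values it lost the Slc2a1 call in prostate (-0.38, adjusted p = 0.0641) and the Slc25a16 call in lung tumors (-0.28, adjusted p = 0.0812). Weak signal could not be assessed without intensities.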
